A study of Rattus norvegicus with 8 samples.

Results

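Bile acid and sterol transporters are the membrane proteins that carry bile acids, conjugated organic anions, phospholipid and sterols into and out of the hepatocyte. The group held 10 rat genes, Slc10a1, Slco1b2, Abcb11, Abcb4, Abcc2, Abcc3, Abcg5, Abcg8, Slc51a and Slc51b, chosen by name. Probes were assigned to them by the RefSeq accession printed for each non-control probe, which gave 11 probes for 9 of the 10 genes among 41012 probes in all. No probe carried an accession of Slc51b. Each of the 9 genes had a probe among the 25125 genes tested, where "gene" also stands for a probe without a symbol.

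Liver RNA came from male Wistar/ST rats that ate a high-fat diet and were given high-fructose water for 5 weeks. The 4 arrays labelled Eucommia were of animals whose drink was Eucommia ulmoides leaf extract, from a tree known in herbal medicine. The 4 arrays labelled Control were of animals on that regime without the extract. Neither the age of the rats nor the dose was given in the sources used here, no group on ordinary chow was analysed here, and the labels do not tie each array to a rat of its own, so the p-values here speak only for the spread among these samples.

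In the hepatocyte, bile acids arrive from portal blood through the sodium-coupled carrier Slc10a1 and the sodium-independent Slco1b2. They leave into the bile canaliculus through the bile salt export pump Abcb11, beside Abcb4, which moves phosphatidylcholine, Abcc2, which moves conjugated organic anions, and the heterodimer of Abcg5 and Abcg8, which moves cholesterol and plant sterols. Abcc3 and the heterodimer of Slc51a and Slc51b export bile acids and conjugates back to blood, and the Slc51 pair is best known from the ileum. The bile acid receptor Nr1h4 and the oxysterol receptor Nr1h3 are known regulators of several of these genes.

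Signals were put on the log2 scale after division by the 75th percentile of each array, so that a log2 signal of 0 is the signal at that percentile. The share of spots flagged as well above background was 70.7% ± 1.16 on Eucommia arrays and 59.8% ± 1.17 on Control arrays (SD, n = 4 each). The lowest signal called well above background was 5.90 ± 0.15 raw units on Eucommia arrays and 12.7 ± 1.05 on Control arrays. All Eucommia arrays lay on 1 slide and all Control arrays on another, so every difference given here is one of slide as well as group, and these cannot be told apart. All 6 hepatocyte markers were above background on every array, with a summed linear signal of 2537 to 2947 times the 75th percentile on Eucommia arrays and 2827 to 3129 times on Control arrays, and none of the 6 passed the test (limma, 2 at an unadjusted p under 0.05). Of 2 further probes of Alb, tested each on its own, 1 passed as lower at -0.42 (adjusted p = 0.0139 by limma).

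Of the 9 transporters tested, Slc51a rose in the Eucommia group and the other 8 did not pass the test (limma, Benjamini-Hochberg adjusted p under 0.05 over all genes tested). Slc51a was at least 3.66-fold higher on Eucommia arrays, where it was above background, than on Control arrays, where it was not. The uptake carrier Slc10a1 and the export pump Abcb11 had log2 fold changes of -0.31 and -0.17, and the phospholipid transporter Abcb4 had 0.34, all short of the threshold. Among all genes tested 24.6% passed, 18.4% higher and 6.16% lower, so 1 call among 9 is no larger a share than the background. In bulk liver, more cells that express a gene and more RNA per cell cannot be told apart. Groups did not overlap for 2 of the 9, Slc51a and Abcb11, against 28.5% of all genes tested. A gene needed 4 arrays above background to be tested, and Slc51a met this through the Eucommia arrays alone, which fixed its direction in part. Over the 8 transporters above background on every array the median log2 fold change was 0.08, with 4 positive and 4 negative, beside -0.02 over all 20092 genes of that kind. None of these 8 was called, against 18.5% of those 20092 genes, and 1 of the 8, Slc10a1, had an unadjusted p under 0.05.

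**Figure D1:**
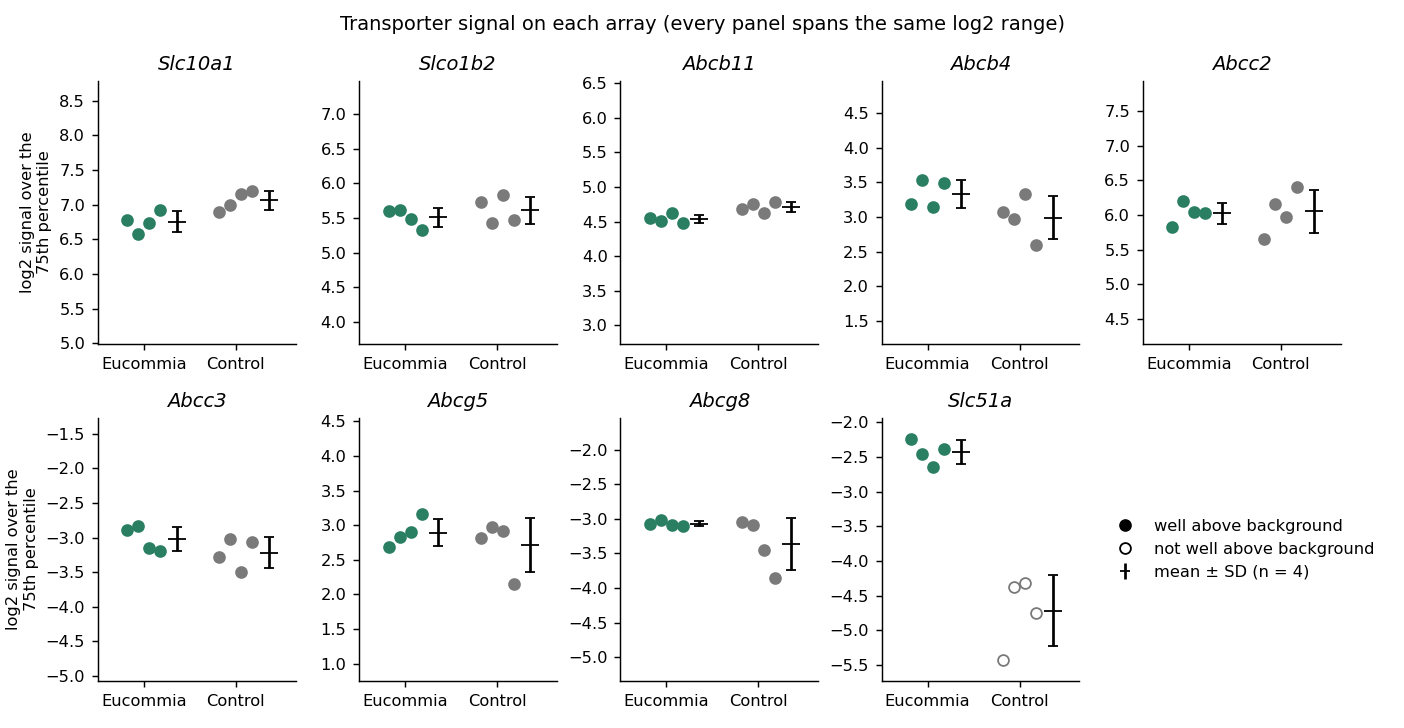
Log2 signal over the array's 75th percentile for each transporter with a probe, with 4 Eucommia arrays left and 4 Control arrays right in every panel; open points were not well above background, and bars are the mean ± SD. Every panel spans the same log2 range, and only the Slc51a panel shows a wide gap between the groups (-2.65 to -2.23 on Eucommia arrays, -5.43 to -4.32 on Control arrays).

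Among the uptake carriers, Slc10a1 had log2 signals of 6.78, 6.57, 6.74 and 6.93 on Eucommia arrays and 6.89, 7.0, 7.15 and 7.20 on Control arrays. All but 1 of the 4 Eucommia arrays lay under every Control array, and the brightest Eucommia array lay just above the dimmest Control array, so the groups overlapped. The means were 6.76 ± 0.15 in the Eucommia group and 7.06 ± 0.14 in the Control group (SD, n = 4 each). The log2 fold change was -0.31 ± 0.11 (SE), with a 95% interval of -0.56 to -0.05 before any adjustment and an adjusted p of 0.081 by limma. It was past the threshold with a variance trend (adjusted p = 0.0432 by limma) and with array weights (0.0281 by limma). Slco1b2, the other carrier, ran from 5.33 to 5.62 on Eucommia arrays and from 5.43 to 5.83 on Control arrays. Its log2 fold change of -0.11 ± 0.12 (adjusted p = 0.59 by limma) had an interval of -0.39 to 0.17.

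By design the genes of like pattern were sought for the transporter with the smallest p among those above background on every array, which was Slc10a1. Its nearest genes by root mean square difference of gene-centred log2 values over the 8 arrays were Cd81 (0.05), a tetraspanin of the cell surface, Spint2 (0.05), a serine protease inhibitor, and Lin7c (0.05), a scaffold protein of cell junctions, out of 9964 named genes ranked. The 250 bases before the Slc10a1 start, and the matching stretches of Slc51a and of the Abcg5 and Abcg8 pair, are printed from the RefSeq promoter table (build GRCr8), since these genes hold the smallest p among bright transporters, the largest difference, and a shared promoter.
Slc10a1, chr6:106357945-106358194, minus strand: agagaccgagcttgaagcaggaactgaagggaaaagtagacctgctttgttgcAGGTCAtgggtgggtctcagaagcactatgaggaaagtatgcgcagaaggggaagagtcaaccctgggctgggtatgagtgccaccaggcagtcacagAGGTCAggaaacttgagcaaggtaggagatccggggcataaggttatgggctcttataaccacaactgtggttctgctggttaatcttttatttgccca
Slc51a, chr11:81803891-81804140, plus strand: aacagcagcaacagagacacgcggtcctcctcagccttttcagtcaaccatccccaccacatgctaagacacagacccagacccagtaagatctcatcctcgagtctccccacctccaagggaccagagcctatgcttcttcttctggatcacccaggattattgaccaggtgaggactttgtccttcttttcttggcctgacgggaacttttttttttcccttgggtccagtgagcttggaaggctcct
Abcg5 and Abcg8, chr6:15717731-15717935, plus strand: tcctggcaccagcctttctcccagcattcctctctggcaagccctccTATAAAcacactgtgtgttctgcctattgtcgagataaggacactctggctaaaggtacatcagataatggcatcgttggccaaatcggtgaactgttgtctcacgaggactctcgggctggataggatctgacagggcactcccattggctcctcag
Capitals mark the letters AGGTCA, which nuclear receptors are known to bind, and TATAAA, each searched on both strands. The Slc10a1 stretch held AGGTCA 2 times, starting 197 and 99 bases before the start site, and the stretches of Slc51a and of the Abcg5 and Abcg8 pair held none. The promoter table held no window for Abcb11 or Abcc3, so neither was searched. In the 300-base windows of the table, AGGTCA stood in 4 of the 8 transporter windows (Slc10a1, Slco1b2, Abcc2 and Slc51b) and in 16.2% of all 33469 windows. The inverted repeat AGGTCANTGACCT, the form known for Nr1h4, stood in none of those 8 windows and in 9 of all windows. TATAAA stood in 3 of the 8, those of Slco1b2, Abcg5 and Abcg8, Abcg5 and Abcg8 by the same site, and in 14.2% of all. These matches describe letters and not binding.

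Abcb11, the bile salt export pump, had log2 signals of 4.54, 4.51, 4.62 and 4.48 on Eucommia arrays and 4.69, 4.76, 4.62 and 4.78 on Control arrays. Every Eucommia array lay below every Control array, though the closest pair lay within rounding of each other. The difference was small and tight, -0.17 ± 0.08 (log2, SE; interval -0.36 to 0.01), which is a fold of 0.886, and did not pass (adjusted p = 0.168 by limma). Its SE of 0.08 was the smallest among the 8 transporters above background on every array.

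Abcb4, which flips phosphatidylcholine into bile, pointed the other way. It had log2 signals of 3.18, 3.53, 3.14 and 3.49 on Eucommia arrays and 3.07, 2.98, 3.33 and 2.59 on Control arrays. The groups overlapped through Control replicate 3, and Control replicate 4 was the lowest of the 8 arrays. The log2 fold change was 0.34 ± 0.17 (SE; interval -0.04 to 0.73; adjusted p = 0.182 by limma), and without Control replicate 4 it was 0.21.

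Abcc2, the canalicular pump for conjugated bilirubin and other anions, had a probe printed on 10 spots of each array. After 6 outlier spots were left out, which narrows the spread, 8 to 10 spots remained per array, and their SD was 0.03 to 0.06 on the log2 scale within an array, while the SD over arrays was 0.15 in the Eucommia group and 0.31 in the Control group. Array means ran from 5.83 to 6.20 in the Eucommia group and from 5.66 to 6.41 in the Control group, so the Eucommia arrays lay inside the range of the Control arrays. The log2 fold change was -0.03 ± 0.16 (SE; adjusted p = 0.926 by limma), and the interval of -0.40 to 0.34 allows folds from 0.76 to 1.27.

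The sterol pair Abcg5 and Abcg8 lies head to head on chromosome 6, with start sites 206 bases apart in the promoter table, and the stretch printed above is all that lies between them. Abcg5 had log2 signals of 2.68, 2.84, 2.90 and 3.16 on Eucommia arrays and 2.82, 2.98, 2.92 and 2.15 on Control arrays. Abcg8 had -3.08, -3.02, -3.09 and -3.10 on Eucommia arrays and -3.04, -3.09, -3.45 and -3.86 on Control arrays. Control replicate 4 was the lowest array for both genes, as it was for Abcb4, and for both genes the other arrays of the groups overlapped. Log2 fold changes were 0.18 ± 0.19 for Abcg5 (SE; interval -0.26 to 0.62; adjusted p = 0.562 by limma) and 0.29 ± 0.17 for Abcg8 (interval -0.11 to 0.69; adjusted p = 0.276 by limma). Without Control replicate 4 these were -0.01 for Abcg5 and 0.12 for Abcg8, so that replicate gave the Abcg5 value its sign. The centred profiles of the pair differed by 0.20 on the log2 scale over the 8 arrays, and Abcg8 ranked 182 of 9964 genes by likeness to Abcg5. Abcb4 was nearer to Abcg5 by this measure, at 0.19 and rank 162. A second Abcg8 probe was above background on no array and was not tested.

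Of the transporters toward blood, Abcc3, which exports glucuronides and bile acids, was dim but above background on all 8 arrays by its brighter probe. It ran from -3.19 to -2.84 on Eucommia arrays and from -3.50 to -3.02 on Control arrays. The groups overlapped, and the log2 fold change was 0.20 ± 0.14 (SE; interval -0.12 to 0.51; adjusted p = 0.357 by limma). Its second probe was above background on 2 Eucommia arrays and on no Control array and was not tested. The mean of that probe was nevertheless lower on Eucommia arrays, at -5.48 against -4.95 on Control arrays, a log2 difference of -0.53.

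**Figure D2:**
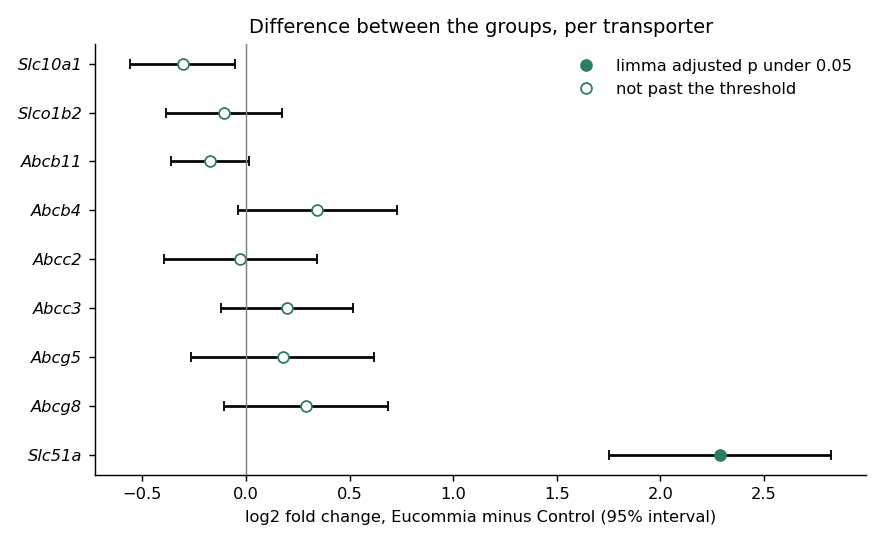
Log2 fold change of each transporter, Eucommia minus Control, with its 95% interval from limma before adjustment. The filled point, Slc51a, passed an adjusted p of 0.05, and as its Control signals were not above background its plotted fold change of 2.29 is a fitted value and not a bound.

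Slc51a, the alpha chain of the basolateral organic solute transporter, had processed signals of 50.9, 41.0, 36.4 and 42.1 raw units on Eucommia arrays and 6.45, 10.96, 11.7 and 9.60 on Control arrays. It was well above background on all 4 Eucommia arrays and on no Control array, and the groups were far apart. On the log2 scale the means were -2.43 ± 0.17 in the Eucommia group and -4.72 ± 0.51 in the Control group (SD, n = 4 each). Measured against the higher of its own signal and the lowest signal above background on each Control array, a mean of -4.30, the Eucommia mean was at least 3.66-fold higher. The fitted log2 difference, which is no bound, was 2.29 ± 0.24 (SE), with an adjusted p of 0.000119 by limma. With normexp background correction it was 0.58 (adjusted p = 0.000332 by limma). That setting used median spot signals in place of processed signals, an added offset of 50 and quantile normalization. Which of these steps lowered the value was not tested.

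The call for Slc51a came in a range of signal where rises were common. Of the 3684 genes with a mean log2 signal from -4 to -3, 29.8% were called higher and 6.92% lower, and this range also held Abcc3 and Abcg8. Of the 2079 genes above background on no Control array, as Slc51a was, 74.1% were called higher. Among the 4682 genes with a mean log2 signal from 2 up, where the other 6 transporters lay, 2.22% were called higher and 5.6% lower.

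**Figure D3:**
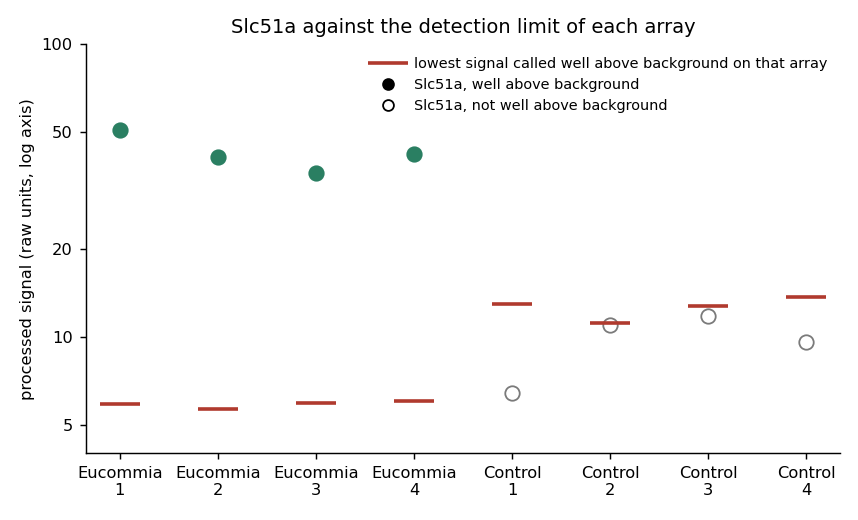
Processed signal of Slc51a in raw units on a log axis, with the lowest signal called well above background on each array as a red bar, 4 Eucommia arrays left and 4 Control arrays right. Slc51a lay at 36.4 to 50.9 on Eucommia arrays, above bars near 5.90, and under the bar on each Control array.

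Slc51a and Abcc3 are also expressed in bile duct epithelium, so cholangiocyte markers were measured beside them. Of 8 tested, 2 were higher and 1 lower, and Krt7 and Sox9 had no gene tested. Beside these and the list counts below, 18.4% of all genes tested were called higher and 6.16% lower. The summed linear signal of the 8 was 6.51 to 7.16 times the 75th percentile on Eucommia arrays and 6.47 to 7.60 times on Control arrays. Anxa4, the brightest of the 8, weighs most in that sum, so its ranges say little about the dimmer markers. The mean log2 signal of Anxa4 was 1.69 ± 0.02 on Eucommia arrays and 1.94 ± 0.10 on Control arrays (SD, n = 4 each). That difference, -0.25 ± 0.08 (SE), was short of the threshold. Cftr, the chloride channel of duct cells, was at least 2.75-fold higher on Eucommia arrays by the 75th percentile scaling. It was above background on no Control array. The fitted log2 difference of Cftr, which is no bound, was 2.62 ± 0.21 (SE; adjusted p = 2.84e-05 by limma). With normexp it was 0.46 (0.000614 by limma). Like Slc51a, Cftr met the filter through the Eucommia arrays alone, which fixed its direction in part. Cldn4, a tight junction protein, rose by 1.54 ± 0.11 (log2, SE), while its second probe had -0.16. Epcam, a surface adhesion protein of duct cells, had -0.52 ± 0.13 and passed (adjusted p = 0.0162 by limma). It did not pass without Eucommia replicate 2 (0.0518 by limma). The duct keratin Krt19 had 0.22 ± 0.17 and did not pass. Of enterocyte markers 2 of 7 were tested and neither passed, nor had an unadjusted p under 0.05, with Vil1, Fabp6, Alpi, Lct and Sis not tested. Fabp2 had 0.32 ± 0.21 and Cdh17 1.75 ± 1.22 (log2, SE). Cdh17 ran from -3.15 to 2.71 on Control arrays, a spread too wide for its test to decide. Of pancreatic acinar markers 3 of 6 were higher, with a summed linear signal of 2.45 to 3.62 on Eucommia arrays and 1.38 to 1.60 on Control arrays. The 3 were the chymotrypsinogen Ctrb1 at 1.79 ± 0.15, the elastase Cela2a at 1.11 ± 0.10 and the lipase Cel at 0.62 ± 0.13 (log2, SE). Cela2a and Cel, unlike Ctrb1, were not followed under other processing. Pnlip had 0.64, Amy2a3 -0.16 and Cpb1 -0.21, and none of these passed. Prss1, Cpa1 and Cela1 were not tested. Without Ctrb1 the summed signal of the other 5 that were tested was 0.719 to 1.18 on Eucommia arrays and 0.739 to 0.844 on Control arrays, so those ranges overlapped. Cpb1, the brightest of the 5, weighs most in that sum. Its mean log2 signal was -1.28 ± 0.55 on Eucommia arrays and -1.07 ± 0.44 on Control arrays (SD, n = 4 each). The part of these markers in the Slc51a difference was not tested. The marker genes named were chosen after their values were seen.

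Among receptors and regulators, 1 of 13 tested was higher and 0 were lower, and their median log2 difference was 0.02. It was Nr1h4, the bile acid receptor, with log2 signals of 1.37, 1.23, 1.13 and 1.28 on Eucommia arrays and 0.91, 0.73, 0.93 and 0.89 on Control arrays. Every Eucommia array lay above every Control array. The log2 fold change was 0.39 ± 0.09 (SE; adjusted p = 0.0147 by limma), but 0.13 with median centring (0.318 by limma), and with the replicate number as a block it did not pass (0.0571 by limma). Nr0b2, the small repressor that Nr1h4 is known to induce, had 0.02 ± 0.29, with 6.13 to 7.46 on Eucommia arrays and 6.23 to 7.06 on Control arrays. Nr1h3, the oxysterol receptor, had -0.18 ± 0.10 and Nr5a2, an orphan receptor active on bile acid genes, had -0.52 ± 0.18 (adjusted p = 0.225 and 0.0728 by limma). Nr5a2 was past the threshold as lower with the replicate number as a block (0.0266 by limma), with a variance trend (0.0481), with median centring (0.0103) and without Control replicate 4 (0.027 by limma).

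Among other hepatobiliary transporters, 1 of 16 tested was higher and 0 were lower, with a median of -0.14. It was Slc47a1, a proton-coupled exporter of organic cations, which like Slc51a was above background on all 4 Eucommia arrays and on no Control array. Its level on Eucommia arrays was higher by a factor of at least 1.27 (limma, adjusted p = 0.000585). Slc47a1 too met the filter through the Eucommia arrays alone, which fixed its direction in part. Of all genes above background on no Control array, 74.1% were called higher. Abcc6, a liver transporter of the same family as Abcc2, had 0.28 ± 0.10 and Atp8b1, a phospholipid flippase of the canaliculus, had -0.45 ± 0.23, and neither passed (adjusted p = 0.0711 and 0.211 by limma). Abcc6 was past the threshold in 5 of 21 alternatives, among them quantile normalization (0.0214 by limma) and cyclic loess (0.0182 by limma), and Atp8b1 had -0.21 without Eucommia replicate 4.

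Of the genes of sterol uptake and efflux 0 of 9 tested were higher and 1 was lower. By the 75th percentile scaling all 9 had negative values, with a median of -0.35. All 9 were above background on every array, and of all 20092 genes of that kind 10790 were negative. Stard3, a sterol carrier of late endosomes, fell by 0.37 ± 0.09 on the log2 scale (adjusted p = 0.0166 by limma). Its second probe had -0.13, and as a mean over both probes it did not pass (0.0932 by limma), nor with the replicate number as a block (0.0704 by limma). Npc2, a sterol carrier of lysosomes, had -0.36 ± 0.12 and did not pass (adjusted p = 0.066 by limma).

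In bile acid synthesis 0 of 14 tested were higher and 2 were lower, with a median of -0.17. Akr1d1, the steroid 5-beta-reductase, fell by 0.82 ± 0.21 on the log2 scale (adjusted p = 0.0193 by limma), and its second probe had -0.44. It did not pass without Eucommia replicate 2 (0.0581 by limma) or 4 (0.0562 by limma). Scp2, a thiolase of side chain shortening, fell by 0.36 ± 0.10 (adjusted p = 0.0263 by limma), and lost its call with quantile normalization (0.108 by limma), with normexp (0.136), with the replicate block (0.0956) and without Eucommia replicate 1, 2 or 3 or Control replicate 1 or 3 (0.0571 to 0.0733 by limma). Cyp39a1, an oxysterol hydroxylase, had -0.43 ± 0.14 and did not pass (adjusted p = 0.0537 by limma).

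**Figure D4:**
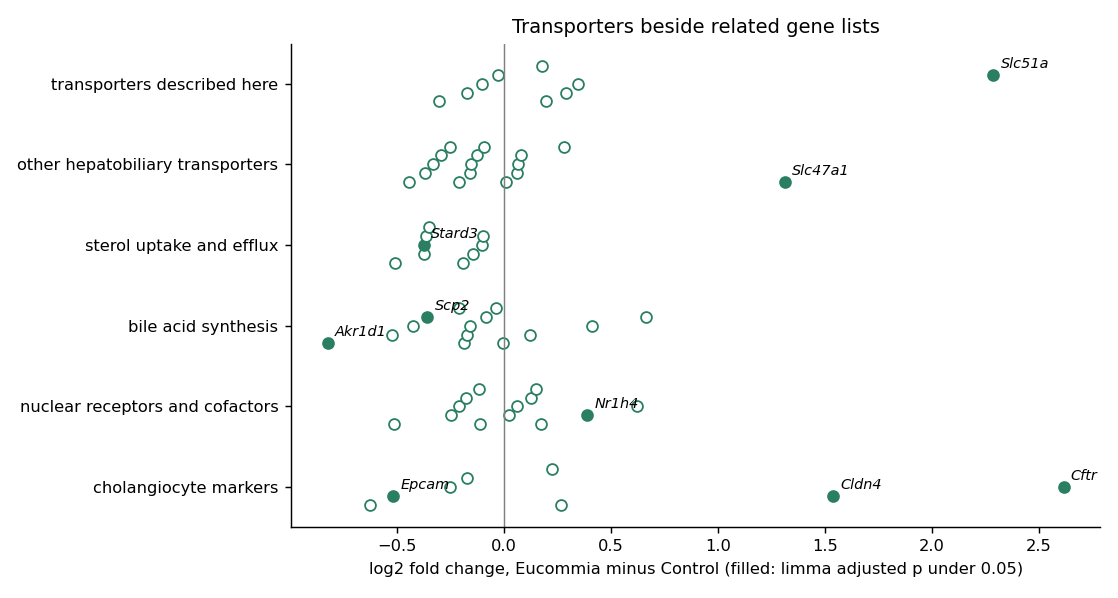
Log2 fold change, Eucommia minus Control, of every tested gene of the transporter group and of 5 related lists, with filled and named points past an adjusted p of 0.05. Slc51a (2.29), Slc47a1, Cldn4 and Cftr stand far right, and of these Slc51a, Slc47a1 and Cftr were above background on no Control array. The sterol uptake and efflux genes all lie left of 0, as do 10790 of all 20092 genes above background on every array.

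Other scalings changed the calls of some bright transporters. Median centring put the median log2 difference over all genes at -0.24, against 0.02 by the 75th percentile, and then Slc10a1 (-0.56), Slco1b2 (-0.36) and Abcb11 (-0.43) also passed as lower. Relative to that shift their values were as before, since centring subtracts the same amount from every gene. The share of called genes that were higher was 74.9% by the 75th percentile, 58.8% with quantile normalization, 65.2% with cyclic loess and 32.2% with median centring. Slc51a passed in all 20 alternatives that gave it a value, with log2 fold changes of 0.58 to 2.42. With 1 array left out the filter was not applied anew, so Slc51a stayed among the genes tested. The series table held the same intensities. Passes in these fits are therefore not independent support.

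**Figure D5:**
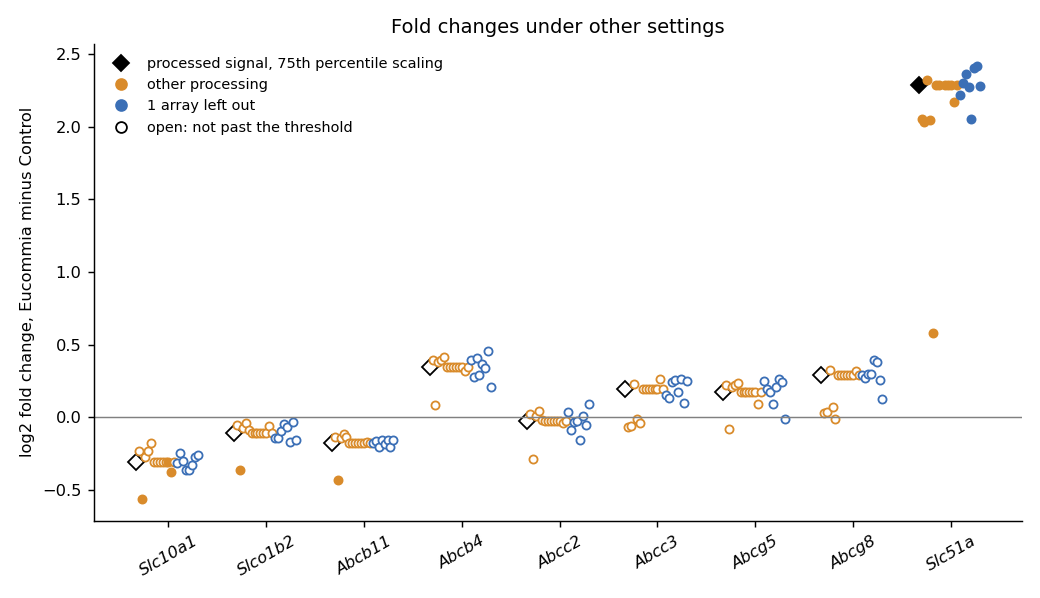
Log2 fold change of each transporter under each setting: diamonds for the 75th percentile scaling used in the text, orange for other processing, blue with 1 array left out, filled where the adjusted p is under 0.05. Slc51a lies between 2.03 and 2.42 in every setting shown except normexp (0.58), and the only filled points of other genes belong to Slc10a1, Slco1b2 and Abcb11.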

How the data were processed

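Per the labels' protocols, 500 ng of total RNA was labelled with Cy3 for each 1-colour array. The deposited files hold intensity values written by the scanner software of Agilent (Feature Extraction 10.1.1.1, per the submitters' processing notes). Per the file headers these are background-subtracted and detrended within each array and not normalized between arrays. The deposited flags of other kinds mark control, outlier, saturated (none) and well above background spots. The deposited series table held the same intensity at 100% of 43379 non-control spots (relative tolerance 1e-04), on a linear scale and uncentred, with column medians of 26.3 to 32.0.

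Processed signals were put on the log2 scale minus the 75th percentile of each array. Control and outlier spots were left out and spots of a probe averaged. Probes well above background on at least 4 of 8 arrays were kept (27717), and a gene is its brightest kept probe. By accession, without version, 16327 probes matched 13025 symbols of RefSeq (GRCr8). Because the array was designed on an older build, only promoter windows of the RefSeq table carry coordinates. The test was limma 3.58.1 (R 4.3.3), 2-sided, with Benjamini-Hochberg adjustment over all 25125 genes. The number of arrays limits the precision. A gene above background on no array of a group has a lower bound in place of a fold. That bound compares group means under the 75th percentile scaling and allows for no sampling error.

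The 10 transporters and the gene lists were chosen with earlier results of these data known. Named genes are the transporters, Nr1h4, Nr0b2, Nr1h3, and of each other list the 3 with the smallest p and all past the threshold. A gene that this rule names is not reported here. The genes named otherwise were chosen after their values were seen: the markers, and Cyp7a1, Cyp8b1, Abcc4 and Abca1. The procedure was tested on simulated data. Alternatives were other scalings, background correction, filters, probe rules and variance models, the series table, the replicate block and each array left out, with the set of tested genes kept. A slide block could not be fitted. Same-numbered arrays of the groups deviated with correlations of -0.10 to -0.03 over genes, which gave no sign that the numbers pair them. As deviations were taken from the mean of each group, these correlations cannot exclude a pairing.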

Additional observations from a re-analysis of the deposited data

Results flagged for a closer look

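Among 64 groups of 4 arrays examined for 32 named genes, 2 held an array far from the other 3, where chance flags about 1 in 20. Nr1h3, the oxysterol receptor, had a log2 signal of 5.67 on Eucommia replicate 3, with the nearest other Eucommia array at 5.86. Alb, a hepatocyte marker, had 9.80 on Control replicate 1; the other 3 Control arrays were higher.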

How the results depend on the processing

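Over all genes 6170 of 25125 were called, and 11745 of 25125 with median centring. The count was 12777 of 37710 without a filter on dim probes and 3703 of 20099 when all 8 arrays had to be above background. Among transporters 1 was called, and 4 with median centring, 2 with the trended robust variance, 2 with array weights (each time Slc51a and Slc10a1 in these 2) and 0 of 8 when all 8 arrays had to be above background, where Slc51a was no longer tested. With 1 array left out, counts over all genes ran from 4937 to 5731 and the transporter count was 1 in all 8 fits. In the fit with the replicate block 5143 genes were called, 4155 higher and 988 lower, and 1 transporter, and no same-numbered arrays correlated best with each other. No sample was left out of any other fit.

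Signs turned for small values. Abcc2 had 0.0202 with quantile normalization, 0.0076 with the percentile taken over detected probes alone, 0.0453 with cyclic loess and -0.16 to 0.0925 with 1 array left out. Abcc3 had -0.0665 with quantile normalization, -0.0593 with median centring, -0.0118 with cyclic loess and -0.0366 with normexp. Abcg5 had -0.0782 with median centring and -0.0115 to 0.27 with 1 array left out, Abcg8 -0.0114 with normexp and Krt19 -0.0335 with median centring. Nr0b2 had -0.23 with median centring, -0.0160 with normexp, -0.20 with array weights and -0.23 to 0.21 with 1 array left out. Abcc4 had 0.67 as a mean over probes, as its 2 probes disagreed. Cyp39a1, Npc2, Nr1h3 and Atp8b1, short of the threshold in the text, passed as lower in 5, 3, 1 and 1 of 21 alternatives, median centring each time among them. The causes were not tested apart from the construction of each alternative. The signal above background limits Slc51a, Slc47a1 and Cftr to lower bounds.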

Other observations

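Bile acid synthesis enzymes that set the size and make-up of the bile acid pool varied widely between arrays. Cyp7a1, the rate-limiting enzyme, had log2 signals of 0.70, -0.37, 1.14 and 1.76 on Eucommia arrays and 0.52, 0.14, 0.28 and 0.66 on Control arrays, and the Eucommia arrays lay on both sides of the Control range. Its log2 fold change was 0.41 ± 0.39 (SE; adjusted p = 0.505 by limma), and ran from 0.0912 without Eucommia replicate 4 to 0.80 without Eucommia replicate 2. Cyp8b1, the sterol 12-alpha-hydroxylase, had 0.67 ± 0.42 (adjusted p = 0.301 by limma), and ran from 0.28 without Control replicate 2 to 1.01 without Control replicate 1. Abca1, the cholesterol exporter toward lipoproteins, had -0.10 ± 0.11 (adjusted p = 0.562 by limma).

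Abcc4, a further exporter of bile acids toward blood, had 2 kept probes that disagreed. The brighter had a log2 fold change of -0.15 ± 0.13 and the other 1.49 ± 0.32, which passed when every probe was tested on its own (adjusted p = 0.0086 by limma). All 6 Kupffer cell markers tested were negative, with a median of -0.47 and 0 past the threshold by limma (2 at an unadjusted p under 0.05). Of all 20092 genes above background on every array, as these 6 were, 10790 were negative. Of sinusoidal endothelial markers 0 of 3 tested passed (2 at an unadjusted p under 0.05 by limma).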
